A study of Mus musculus with 29 samples.

Results

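Stiffness of an aged heart matrix was varied under young cardiac fibroblasts, and RNA was counted in 6 libraries, 3 on StiffA and 3 on SoftA, of 29 in the series. The members were taken from the titles alone: primary cardiac fibroblasts of young mice (YCF) kept for 48 h on StiffA, replicates 1 to 3, against the same kind of cells on SoftA, replicates 1 to 3. DECIPHER substrates hold extracellular matrix of the heart within a hydrogel, so that matrix age (Y for young, A for aged) and gel stiffness can be set apart. Within this comparison the matrix was aged and the cells were young in every library, and the gel differed. The other cultured groups used here were young cells on SoftY (2 libraries) and StiffY (3), and aged cells (ACF) on SoftA (3) and StiffA (3). The labels give no strain, sex, age in months or gel modulus, and they number biological replicates but name no animal behind any number. A p-value here therefore describes variation among libraries, which may be technical.

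Cardiac fibroblasts make and maintain the collagen network of the heart. They sense a stiff surface through integrins, focal adhesions and the actin cytoskeleton, and the transcriptional cofactors YAP, TAZ and MRTF are the best known carriers of that signal to the nucleus. Interferons act by another route. Type I interferon binds the receptor IFNAR, the kinases JAK1 and TYK2 then activate STAT proteins, and a complex with STAT2 and IRF9 binds the interferon-stimulated response element in the promoters of antiviral genes. IRF7 is itself a target of this complex and drives further interferon production, while USP18 dampens signalling at the receptor.

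Totals were 1329591, 2479700 and 1304731 counts in the 3 SoftA libraries and 2523957, 2182548 and 2438739 in the 3 StiffA libraries, within a series range of 1192668 to 3275089. A gene at 10 CPM (counts scaled to a common library total) thus rested on 13.0 to 24.8 counts per SoftA library and 21.8 to 25.2 per StiffA library. Fibroblast markers were high in all 6 libraries: Col1a1 lay between 11994 and 13698 CPM and the receptor gene Pdgfra between 829 and 1044 CPM. Myh6, the cardiomyocyte myosin, had 0 counts, and 11 of 18 cardiomyocyte markers were at 0 in every library. The leucocyte gene Ptprc stayed at or under 0.916 CPM, and of 20 myeloid markers Fcgr1, Aif1 and H2-Aa were at 0. The summed myeloid markers nevertheless ran from 46.6 to 78.9 CPM on SoftA and from 33.9 to 42.8 CPM on StiffA. The same sums were 566 to 674 against 490 to 563 CPM for pericyte markers, 223 to 247 against 167 to 195 CPM for epicardial markers and 35.3 to 47.5 against 21.0 to 32.8 CPM for cardiomyocyte markers. Most of the epicardial sum was Aldh1a2, a gene called below, at 175 to 211 against 116 to 148 CPM. Of the 3 epicardial genes tested, 2 had positive log2 fold changes. Endothelial sums overlapped, at 593 to 669 against 585 to 662 CPM, as did Schwann cell sums, at 271 to 423 against 260 to 353 CPM. Since RNA came from bulk samples, fewer cells of a type and less RNA per cell cannot be told apart. Replicate 3 of either substrate stood apart from replicates 1 and 2, and results are given below without both of them and without the 2 shallow SoftA libraries.

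On aged matrix, few genes of young cells differed between stiff and soft gels: interferon-stimulated genes were higher on StiffA, and some matrix, chemokine and resident fibroblast genes were lower. Of 12841 genes tested, 27 passed an adjusted p of 0.05 in edgeR's quasi-likelihood test with Benjamini-Hochberg adjustment, which is 0.21% of all genes. 16 were higher on StiffA (0.125%) and 11 were lower (0.0857%), and all 9 called changes over 2-fold were upward. The median log2 fold change of all genes was -0.003. In each of the 27 genes the 3 StiffA libraries did not overlap the 3 SoftA libraries, a pattern that 5.76% of all genes showed upward and 5.63% downward. At an unadjusted p under 0.05, 513 genes (4%) were higher and 537 (4.18%) lower.

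The counts depend on which libraries estimate the spread. Libraries numbered 3 deviated together on both substrates, while replicates 1 and 2 also correlated across their numbers. With the replicate number as a block within the 6 libraries, 44 genes were higher and 38 lower, including 15 of the 16 and all 11. Without the block and from the 6 libraries alone, only Ifit1 passed, with 1 gene higher and 0 lower. Leaving out SoftA replicate 1, 2 or 3 gave 10, 10 or 13 genes higher and 5, 15 or 4 lower, and leaving out StiffA replicate 1, 2 or 3 gave 8, 13 or 7 higher and 2, 4 or 10 lower. Without both shallow SoftA libraries 4 were higher and 1 was lower, and without both replicates numbered 3 the counts were 9 and 6. 9 of the 27 genes kept their call in each single omission: Ifit1, Oas1a, Ifit3, Ifit3b, Irf7, Stat2, Map6, Ccl2 and Ptn. All 27 kept their direction in every alternative in which they were tested.

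**Figure D1:**
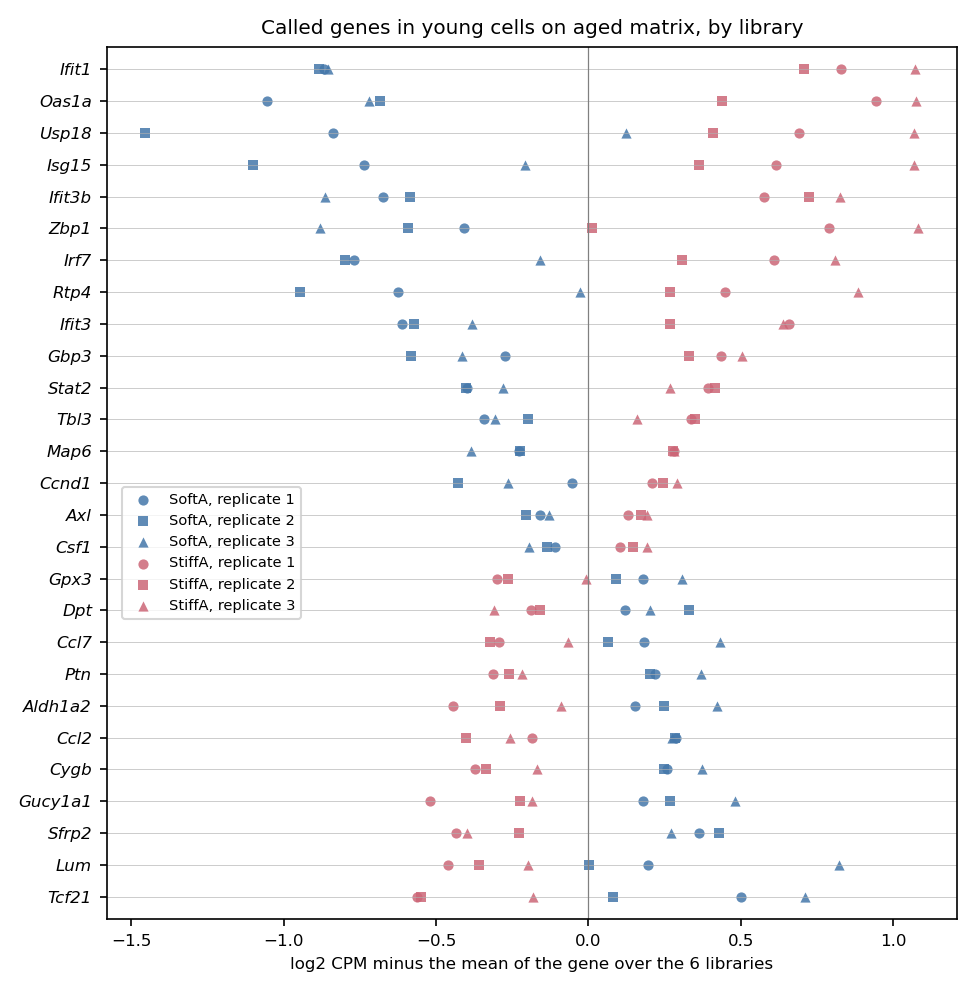
Each point is 1 library: log2 CPM of a called gene minus that gene's mean over the 6 libraries (x axis), by gene (y axis), blue for SoftA and red for StiffA, with a marker shape per replicate number. In all 27 genes the red and blue points are separate, 16 with StiffA to the right and 11 with StiffA to the left, and replicate 3 of SoftA often lies nearest to StiffA in the interferon genes (Usp18, Isg15, Irf7, Rtp4).

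Interferon-stimulated genes held the highest folds among the genes called. 9 of the 16 genes higher on StiffA belong to the interferon list, and Ifit3b and Rtp4, both known interferon targets outside it, bring the number to 11. Where more genes were called, list members were a smaller share of those higher, at 13 of 44 with the replicate block within the 6 libraries, 9 of 26 with DESeq2 and 14 of 42 with no filter on low counts. Of the 39 genes of the list, 38 are in the table and 36 were tested: 9 were higher and 0 lower, against 0.125% of all genes higher. 33 of the 36 had a positive log2 fold change, beside 49.5% of all genes, and 25 lay above without overlap, beside 5.76%. The median of the 36 was 0.77 beside -0.003 for all genes. 27 were higher and 1 was lower at an unadjusted p under 0.05, beside 4% and 4.18% of all genes. Irf1, which interferon gamma and NF-kB also induce, was the lower gene, at -0.77 ± 0.28 (log2 ± SE, adjusted p = 0.428). DESeq2 called 9 higher and 0 lower, among 17 members to which it gave an adjusted p, but not the same 9. Its calls included Oasl2, Irgm1 and Iigp1, which edgeR did not call, while Oas1a, Usp18 and Zbp1 received no adjusted p. With the replicate block 13 of 33 were higher, from the 6 libraries alone 1 of 33, and without both replicates numbered 3 it was 7 of 35 with a median of 0.79. Without both shallow SoftA libraries the median was 0.92, but this leaves SoftA replicate 2 as the only soft library. Leaving out SoftA replicate 1, 2 or 3 alone gave medians of 0.72, 0.69 and 0.85. The part of depth in these values was not tested.

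Promoters of 4 called interferon genes are shown because they carry the letters that the complex with STAT2 and IRF9 is known to bind. Each window runs from 250 bases before to 50 after the RefSeq start, in build GRCm38.p6 and in the direction of the gene. Capitals mark the core of the response element, GAAA followed by any 2 bases and another GAAA, on either strand, with overlapping matches merged. Ifit1 lies at chr19:34640639-34640938 (+), Isg15 at chr4:156200769-156201068 (-), Oas1a at chr5:120907476-120907775 (-) and Stat2 at chr10:128270248-128270547 (+).
Ifit1: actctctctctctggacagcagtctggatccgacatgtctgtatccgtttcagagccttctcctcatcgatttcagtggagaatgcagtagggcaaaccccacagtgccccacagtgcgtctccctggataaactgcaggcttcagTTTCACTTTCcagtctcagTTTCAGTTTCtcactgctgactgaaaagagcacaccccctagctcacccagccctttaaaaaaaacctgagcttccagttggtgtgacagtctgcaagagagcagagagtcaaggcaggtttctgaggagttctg
Isg15: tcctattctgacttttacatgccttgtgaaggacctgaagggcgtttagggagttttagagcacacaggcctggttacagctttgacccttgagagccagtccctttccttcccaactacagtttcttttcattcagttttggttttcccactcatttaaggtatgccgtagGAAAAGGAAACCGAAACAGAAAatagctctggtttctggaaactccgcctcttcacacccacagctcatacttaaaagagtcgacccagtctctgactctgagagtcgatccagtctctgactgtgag
Oas1a: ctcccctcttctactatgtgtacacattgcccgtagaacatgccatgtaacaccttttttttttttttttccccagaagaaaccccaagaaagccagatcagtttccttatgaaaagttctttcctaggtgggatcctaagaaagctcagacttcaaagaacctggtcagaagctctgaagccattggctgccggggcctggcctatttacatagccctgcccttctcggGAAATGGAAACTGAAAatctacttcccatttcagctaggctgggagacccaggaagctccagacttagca
Stat2: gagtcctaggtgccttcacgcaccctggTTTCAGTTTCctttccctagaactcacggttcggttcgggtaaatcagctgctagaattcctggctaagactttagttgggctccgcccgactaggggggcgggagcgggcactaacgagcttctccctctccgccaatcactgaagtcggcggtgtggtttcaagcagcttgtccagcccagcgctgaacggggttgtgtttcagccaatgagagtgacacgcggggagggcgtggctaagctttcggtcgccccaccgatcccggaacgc
The windows hold 2, 3, 2 and 1 matches in this order, and in Isg15 the 3 overlap. The motif was chosen after the values were seen. Of all 27025 genes with a window, 3.99% hold at least 1 match. 10 of the 16 genes higher on StiffA had a window, and 7 of them hold the motif (Ifit1, Oas1a, Ifit3, Ifit3b, Stat2, Isg15 and Gbp3). These 7 are known interferon genes, in which the motif is common. In the interferon list, called or not, 27 genes had a window and 15 of them (55.6%) hold it. 7 of the 11 lower genes had a window, and 0 hold it. The windows of Irf7, Axl and Csf1 hold no match, which says only that these letters are not in those bases.

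Ifit1 encodes an antiviral protein that binds foreign RNA (ENSMUSG00000034459, mm39 chromosome 19, 34618271 to 34627410). It measured 33.1, 32.6 and 33.3 CPM in SoftA replicates 1, 2 and 3 and 107, 98.5 and 127 CPM in StiffA replicates 1, 2 and 3. The SoftA libraries were nearly equal and every StiffA library lay above them. The fold was 3.36, and the log2 fold change was 1.75 ± 0.22 (adjusted p = 0.000385), the only call kept in all 16 alternatives, with adjusted p-values up to 0.0391. Its neighbour Ifit3, of the same family, rose from 104, 107 and 122 CPM to 251, 191 and 247 CPM (1.06 ± 0.15, adjusted p = 0.00113). Ifit3b followed, at 17.7, 18.8 and 15.5 CPM on SoftA and 42.1, 46.6 and 50.1 CPM on StiffA (1.40 ± 0.23, adjusted p = 0.00386). Ifit3 and Ifit3b are near-identical copies, and how reads were split between them is uncertain.

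Oas1a makes the 2-5A messenger that switches on RNase L. It measured 6.15, 7.95 and 7.75 CPM on SoftA and 24.6, 17.3 and 26.9 CPM on StiffA (1.63 ± 0.24, adjusted p = 0.00113), with copies in the Oas1 family that make its level uncertain too. Isg15, a ubiquitin-like modifier, measured 16.1, 12.5 and 23.3 CPM on SoftA and 41.2, 34.6 and 56.4 CPM on StiffA. Replicate 3 was the highest on both substrates, and the log2 fold change was 1.41 ± 0.27 (adjusted p = 0.0215). Usp18, which strips ISG15 from proteins and restrains the receptor, measured 11.5, 7.53 and 22.5 CPM on SoftA and 33.3, 27.4 and 43.3 CPM on StiffA (1.43 ± 0.29, adjusted p = 0.0284). SoftA replicate 3 came closest to the StiffA libraries. Zbp1, a sensor of Z-form nucleic acid, changed by 1.31 ± 0.28 (adjusted p = 0.0461), Rtp4 by 1.09 ± 0.21 (adjusted p = 0.0238), and the guanylate-binding GTPase gene Gbp3 by 0.86 ± 0.17 (adjusted p = 0.0215).

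Calls of Isg15, Usp18, Zbp1, Rtp4 and Gbp3 were lost when any of several libraries was left out, while their log2 fold changes stayed positive. Isg15, Usp18 and Rtp4 lost theirs without SoftA replicate 1 or 2 or without StiffA replicate 1 or 3 (adjusted p up to 0.145, 0.155 and 0.155). Gbp3 and Zbp1 lost theirs in these cases and without SoftA replicate 3 (up to 0.107 and 0.225). Within the numbered pairs the log2 ratio of StiffA to SoftA was 1.35, 1.46 and 1.28 for Isg15 and 0.71, 0.91 and 0.92 for Gbp3. For Zbp1 it ranged more widely, at 1.20, 0.60 and 1.97.

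The pathway was then read by role, with genes added after values were seen. The table holds 21 interferon genes, and together they had 1 count in the 6 libraries and 16 in all 23 cultured libraries, too few to compare the substrates. The type I receptor gene Ifnar1 had a log2 fold change of -0.12 ± 0.11 (adjusted p = 0.849) and Ifnar2 one of -0.03 ± 0.14 (adjusted p = 0.980). The kinase genes Jak1 and Tyk2 stood at 0.05 ± 0.08 (adjusted p = 0.922) and -0.14 ± 0.16 (adjusted p = 0.888). Above the receptor, the DNA sensor gene Cgas had at most 8 counts in a library, and the adaptor gene Mavs stood at 0.13 ± 0.17 (adjusted p = 0.899). The receptor, kinase, sensor and adaptor genes named so far had no call, and in each of them the substrates overlapped. Ifngr2, Jak2, Sting1 and Tlr3 overlapped as well. Other members did not overlap, also without a call. The receptor gene Ifngr1 was lower on StiffA (-0.35 ± 0.10, adjusted p = 0.180). The sensor genes Dhx58 (1.35 ± 0.34, adjusted p = 0.132), Ifih1 (0.46 ± 0.18, adjusted p = 0.499) and Ddx58 (0.36 ± 0.12, adjusted p = 0.340) were higher.

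The transcription factors of the pathway are themselves interferon targets, and 2 of them rose. Stat2 measured 102, 102 and 111 CPM on SoftA and 177, 179.7 and 162 CPM on StiffA (0.72 ± 0.12, adjusted p = 0.00488). Irf7 measured 26.9, 26.4 and 41.1 CPM on SoftA and 70.0, 56.7 and 80.3 CPM on StiffA (1.16 ± 0.18, adjusted p = 0.00164). The spread within a substrate was tight for Stat2, and for Irf7 SoftA replicate 3 lay above the other 2 SoftA libraries. Irf9 missed the threshold at 0.62 ± 0.17 (adjusted p = 0.168). Irf3, which is not an interferon target, stood at 0.19 ± 0.16 (adjusted p = 0.826). Several effectors had large values without a call, among them Oasl2 (0.84 ± 0.22, adjusted p = 0.149), Xaf1 (1.02 ± 0.28, adjusted p = 0.174) and Iigp1 (0.86 ± 0.24, adjusted p = 0.206), and all 3 passed with the replicate block.

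**Figure D2:**
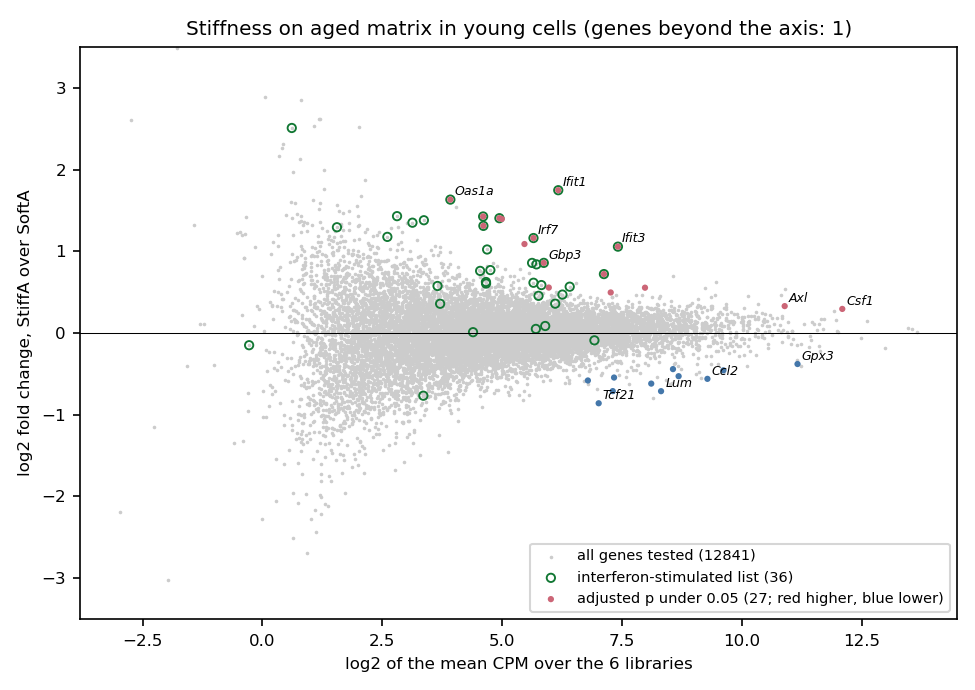
Each point is a gene: log2 of its mean CPM over the 6 libraries (x axis) against its log2 fold change, StiffA over SoftA (y axis). Rings mark the 36 interferon-list genes, red and blue the 16 genes higher and the 11 lower at an adjusted p under 0.05, and 33 of the 36 rings lie above 0 while the lower genes sit at middle and high levels with small folds.

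The 5 other genes that rose moved little and have separate functions. Axl, a receptor tyrosine kinase and a known YAP target, measured 1685, 1633 and 1721 CPM on SoftA and 2061, 2120.4 and 2149.8 CPM on StiffA (0.33 ± 0.06, adjusted p = 0.0109). Csf1, the growth factor of macrophages, measured 4017, 3940.4 and 3782 CPM on SoftA and 4656, 4797 and 4952 CPM on StiffA (0.30 ± 0.06, adjusted p = 0.0448). Both are among the most abundant transcripts called, and their gaps between substrates are narrow and clean. Cyclin D1 (Ccnd1), which carries cells from G1 towards S phase, measured 145, 112 and 126 CPM on SoftA and 174, 179 and 184 CPM on StiffA (0.50 ± 0.10, adjusted p = 0.0244). Map6, a gene of microtubule stability that was singled out after its values were seen, measured 211, 211 and 189 CPM on SoftA and 299.8, 299.3 and 299.9 CPM on StiffA (0.56 ± 0.09, adjusted p = 0.00387). The StiffA libraries of Map6 were nearly equal. Tbl3, a ribosome biogenesis factor, passed narrowly (0.56 ± 0.12, adjusted p = 0.0448) and failed with the replicate block (adjusted p = 0.0642) and in each of 6 omissions (adjusted p 0.0597 to 0.229). Csf1 also failed in each omission (0.0871 to 0.217), Axl without SoftA replicate 1, StiffA replicate 2 or StiffA replicate 3 (up to 0.0874), and Ccnd1 in 5 of 6, that is in all but SoftA replicate 1 (up to 0.116).

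Genes that fell include markers of the resident fibroblast, fibril-binding proteins and chemokines. Tcf21, the transcription factor that sets the cardiac fibroblast lineage in development (chromosome 10, 22693180 to 22696074), measured 172, 129 and 199 CPM on SoftA and 82.4, 83.1 and 107 CPM on StiffA. The lowest SoftA library lay above the highest StiffA library, and the log2 fold change was -0.86 ± 0.18 (adjusted p = 0.0343). Lumican (Lum), a small leucine-rich proteoglycan that spaces collagen fibrils, measured 347, 303 and 535 CPM on SoftA and 219.9, 236 and 264 CPM on StiffA (-0.71 ± 0.14, adjusted p = 0.0284). SoftA replicate 3 stood well above the rest, and without it the value was -0.43 (adjusted p = 0.191). Dermatopontin (Dpt), which also organises collagen fibrils, measured 405, 468.5 and 429 CPM on SoftA and 327, 333 and 300.3 CPM on StiffA (-0.44 ± 0.09, adjusted p = 0.0426). Dpt lost its call in each single omission (adjusted p 0.0514 to 0.169) and Tcf21 without SoftA replicate 1 or 3 or StiffA replicate 1 or 2 (up to 0.254), and Lum also without StiffA replicate 1 or 2 (up to 0.229).

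The resident fibroblast list holds 28 genes, of which 27 were tested. 3 fell (Tcf21, Lum and Dpt) and 0 rose, beside 0.0857% and 0.125% of all genes, and the median was -0.24 beside -0.003 for all genes. 9 were lower and 0 higher at an unadjusted p under 0.05, beside 4.18% and 4% of all genes. DESeq2 called the same 3 lower and 0 higher, among 16 to which it gave an adjusted p. The replicate block called 4 of 25 lower. The list had 0 calls when SoftA replicate 3, StiffA replicate 1 or StiffA replicate 2 was left out, with medians of -0.14, -0.20 and -0.26, and the median without SoftA replicate 2 was -0.38. Without both shallow SoftA libraries it also had 0 calls, with a median of -0.15. Without both replicates numbered 3 the list had 0 calls in either direction and a median of -0.15. Decorin (Dcn), another fibril-binding proteoglycan, missed the threshold at -0.40 ± 0.10 (adjusted p = 0.147) and passed with the block (adjusted p = 0.00961). Pdgfra overlapped between substrates, at 943, 1043.7 and 865 CPM on SoftA and 972, 964 and 829 CPM on StiffA (-0.05 ± 0.09, adjusted p = 0.944), and gelsolin (Gsn) stood at 0.01 ± 0.08 (adjusted p = 0.998). Some abundant genes of the list thus had values near 0 beside the 3 that fell. The summed pericyte and myeloid markers were lower on StiffA as well, as was the epicardial sum, which was mostly the called gene Aldh1a2. Endothelial and Schwann cell sums overlapped. The part of other cell types in these changes was not tested.

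Of 18 proteoglycan genes tested, 1 fell (Lum), beside 0.0857% of all genes, with a median of -0.31. At an unadjusted p under 0.05, 5 were lower and 0 higher, beside 4.18% and 4% of all genes. DESeq2 called 2 lower, Lum and osteoglycin (Ogn), among 10 to which it gave an adjusted p, and the replicate block called 3 of 16 lower. Ogn stood at -0.63 ± 0.17 (adjusted p = 0.166, and 0.00804 with the block).

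The chemokine genes Ccl2 and Ccl7, neighbours on chromosome 11 that both recruit monocytes, fell together. Ccl2 (81926397 to 81928280) measured 742, 741 and 736 CPM on SoftA and 535, 460.3 and 509 CPM on StiffA. The SoftA libraries were nearly equal and every StiffA library was lower, with a log2 fold change of -0.56 ± 0.08 (adjusted p = 0.000821). Ccl7 measured 872, 804 and 1037.5 CPM on SoftA and 627, 615 and 734 CPM on StiffA (-0.46 ± 0.09, adjusted p = 0.0324). It lost its call without SoftA replicate 1 or 3 or StiffA replicate 1 or 2 (adjusted p up to 0.281), while Ccl2 kept its own in every alternative but the fit of the 6 libraries alone (adjusted p = 0.350). Of 33 cytokine and NF-kB target genes tested, these 2 fell and Csf1 rose, beside 0.0857% of all genes lower and 0.125% higher. The list median was -0.27, and 10 genes were lower at an unadjusted p under 0.05, beside 4.18% of all genes. The median was -0.15 without SoftA replicate 3, -0.17 without StiffA replicate 1 and -0.03 without both shallow SoftA libraries, and each of these left 0 higher and 1 lower. The replicate block called 5 of 32 lower and 1 higher, adding Vcam1 (-0.58 ± 0.11, adjusted p = 0.00769), Saa3 (-1.45 ± 0.31, adjusted p = 0.0130) and Cxcl1 (-0.61 ± 0.14, adjusted p = 0.0295). Il6 did not pass in either fit and stood at -0.07 ± 0.16 (adjusted p = 0.954).

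The remaining 6 genes that fell have separate functions. Sfrp2, a secreted modulator of Wnt signalling, measured 197, 206 and 185 CPM on SoftA and 113, 131 and 116 CPM on StiffA (-0.71 ± 0.12, adjusted p = 0.00488). Pleiotrophin (Ptn), a heparin-binding growth factor, measured 468, 462 and 519.5 CPM on SoftA and 324, 336 and 345 CPM on StiffA (-0.53 ± 0.08, adjusted p = 0.00347). Gucy1a1, a subunit of the nitric oxide receptor, measured 304, 323 and 375 CPM on SoftA and 187, 229 and 236 CPM on StiffA (-0.62 ± 0.10, adjusted p = 0.00386). In all 3 genes every StiffA library lay below every SoftA library. Cytoglobin (Cygb), a globin of fibroblasts and pericytes, changed by -0.58 ± 0.11 (adjusted p = 0.0215), Aldh1a2, which makes retinoic acid and marks the epicardium, by -0.54 ± 0.11 (adjusted p = 0.0420), and the extracellular peroxidase gene Gpx3 by -0.38 ± 0.08 (adjusted p = 0.0470). Sfrp2 and Gucy1a1 lost their calls without StiffA replicate 1 (adjusted p = 0.0667 and 0.0593), Cygb and Gpx3 in 4 of 6 omissions (up to 0.190 and 0.354) and Aldh1a2 in 5 of 6 (up to 0.340).

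Genes of stiffness sensing itself showed few calls. edgeR called 0 of 15 contractile genes, 0 of 42 genes of the actin cytoskeleton and focal adhesions and 0 of 23 integrin and syndecan genes. It also called 0 of 12 mechanosensitive channels and 0 of 8 SRF and MRTF genes. DESeq2 called 0 in each of these 5 lists as well. It gave an adjusted p to only 9, 36, 15, 7 and 4 of their genes in this order. At an unadjusted p under 0.05 the numbers higher and lower were 1 and 0, 8 and 3, 2 and 0, 0 and 0, and 0 and 0 in the same order, beside 4% and 4.18% of all genes. In the actin and focal adhesion list 32 of 42 values were positive, beside 49.5% of all genes. There 10 genes lay above without overlap and 1 below, beside 5.76% and 5.63% of all genes. The list medians were -0.07, 0.09, 0.05, 0.01 and 0.09. Acta2, the smooth muscle actin of activated fibroblasts, measured 1159.9, 1025 and 1570.2 CPM on SoftA and 1121, 1147 and 1397 CPM on StiffA, so that the substrates overlapped (-0.03 ± 0.12, adjusted p = 0.969). Tagln was removed by the filter on low counts and was not tested. Piezo1, a stretch-gated channel gene, stood at -0.19 ± 0.25 (adjusted p = 0.903). With the replicate block the integrin list gained 1 gene, Itga5 (0.41 ± 0.10, adjusted p = 0.0468), and the actin list had 1 lower gene, Tmsb4x (-0.54 ± 0.11, adjusted p = 0.00948).

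Of 23 YAP and TAZ target genes tested, Axl rose and 0 fell, with a median of 0.05 and 1 gene in each direction at an unadjusted p under 0.05. Over all genes, 4% were higher and 4.18% lower at that threshold. Ccn1 measured 2557, 2535 and 3168 CPM on SoftA and 2583, 2549 and 2926 CPM on StiffA (-0.03 ± 0.09, adjusted p = 0.956). Ccn2 stood at 0.08 ± 0.15 (adjusted p = 0.946) and Ankrd1 at 0.15 ± 0.11 (adjusted p = 0.778). In each of these 3 genes the substrates overlapped.

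Fibrillar collagen genes had no call. edgeR called 0 of 8, with 0 higher and 1 lower at an unadjusted p under 0.05 and a median of 0.02. At that threshold 4% of all genes were higher and 4.18% lower, which also applies to the lists below. DESeq2 also called 0, among the 6 to which it gave an adjusted p. Col1a1 measured 11994, 12789 and 13617 CPM on SoftA and 12145, 12904 and 13698 CPM on StiffA (0.01 ± 0.07, adjusted p = 0.981). Col3a1 lay lower on StiffA in all 3 libraries, but by -0.19 ± 0.07 (adjusted p = 0.482). Fibronectin (Fn1) stood at 0.15 ± 0.08 (adjusted p = 0.705) and periostin (Postn) at -0.11 ± 0.20 (adjusted p = 0.942). Of 33 TGF-beta pathway genes edgeR called 0, with 4 higher and 0 lower at an unadjusted p under 0.05. DESeq2 gave an adjusted p to 18 of them. Both DESeq2 (adjusted p = 0.0446) and the replicate block (adjusted p = 0.000377) called 1, Ltbp1. Ltbp1 stores latent TGF-beta in the matrix (0.69 ± 0.19, adjusted p = 0.180 in the main test). Of 32 mitosis genes edgeR called 0, with a median of 0.10 and 4 higher and 0 lower at an unadjusted p under 0.05. DESeq2 also called 0, among the 19 to which it gave an adjusted p. Cdkn1a, the p53 target that halts the cell cycle, stood at 0.27 ± 0.10 (adjusted p = 0.466).

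**Figure D3:**
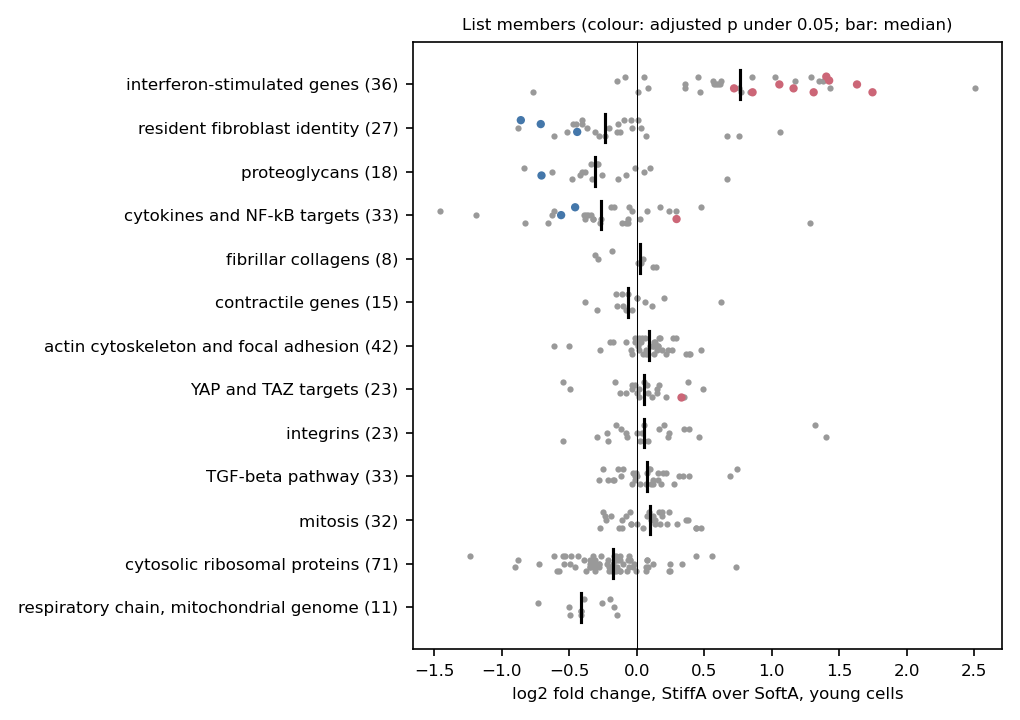
Each point is a tested list member: log2 fold change, StiffA over SoftA in young cells (x axis), by list with its number of members (y axis), coloured at an adjusted p under 0.05, with a bar at the list median. The interferon list lies to the right with a median of 0.77, the resident fibroblast, proteoglycan and cytokine lists lie left at -0.24, -0.31 and -0.27, and the collagen, contractile, actin and YAP lists centre near 0.

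The same cells on young matrix gave a first point of comparison, with 5 libraries that are not among the 6 above. They share the estimate of the spread with them, and they may share sets of cells, since their library numbers run over the same range. There 586 genes passed (4.56% of all genes, 272 or 2.12% higher and 314 or 2.45% lower), beside 27 on aged matrix. The test of the difference itself, StiffA over SoftA minus StiffY over SoftY, called 79 genes (0.615%), 64 higher (0.498%) and 15 lower (0.117%). With a replicate block within the 11 cultured young libraries it called 40 higher and 2 lower by replicate number, or 98 higher and 64 lower by library number. These numbers differ in 1 library, since replicate 2 on SoftY carries library number 3, and which of them marks shared cells is not stated. Leaving out SoftA replicate 2 gave 112 and 99. SoftY had 2 libraries, and without its replicate 1 the counts were 41 and 6.

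In the 8 genes with the smallest p-values of the difference, both SoftY libraries lay above every library of the other 3 substrates. Enpp2, which encodes the lysophosphatidic acid producing enzyme autotaxin, measured 308 ± 15.1 CPM on SoftY (SD, n = 2) and 13.9 ± 1.45 on StiffY, against 32.7 ± 2.62 on SoftA and 45.3 ± 6.48 on StiffA (n = 3 each). Its stiffness effect was -4.48 ± 0.20 on young matrix and 0.48 ± 0.19 on aged matrix, a difference of 4.96 ± 0.28 (adjusted p = 1.38e-11). Stiffness thus lowered Enpp2 on young matrix, and on aged matrix its value was positive and missed the threshold (adjusted p = 0.484). Col15a1, a collagen of basement membrane zones, differed by 3.76 ± 0.30, Steap4, a metalloreductase gene, by 2.33 ± 0.20, and Sparcl1, a matricellular protein gene, by 2.02 ± 0.22. Cpxm1 differed by 1.62 ± 0.12, Apoe by 1.36 ± 0.14, Gsn by 1.30 ± 0.12 and Fbln1 by 1.28 ± 0.12. All 8 differences held in every alternative run. Pdgfra belongs with them: SoftY held 1644 ± 182 CPM and StiffY 808 ± 44.4, against 951 ± 89.4 on SoftA and 922 ± 80.1 on StiffA, a difference of 0.98 ± 0.13 (adjusted p = 6.50e-05).

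Among the 27 genes changed on aged matrix, the effect differed from that on young matrix in 4. Ccl2 fell more on young matrix, from 1152 ± 64.8 to 499 ± 15.4 CPM (-1.21 ± 0.08), than on aged matrix, a difference of 0.65 ± 0.11 (adjusted p = 0.00304). StiffA and StiffY ended at like levels of Ccl2, 501 ± 37.9 and 499 ± 15.4 CPM. Dpt likewise fell more on young matrix (difference 0.63 ± 0.14, adjusted p = 0.0266). Tcf21 differed the other way, by -1.15 ± 0.26 (adjusted p = 0.0347): it fell on aged matrix and stood at 0.29 ± 0.19 on young matrix (adjusted p = 0.474). Irf7 differed by 1.06 ± 0.24 (adjusted p = 0.0383), since it was 75.8 ± 2.12 CPM on SoftY and 82.0 ± 9.05 on StiffY (0.11 ± 0.17, adjusted p = 0.819). Irf7 on SoftA was thus the low group among the 4 young ones. The Ccl2 difference was lost in 1 of 21 alternatives, and those of Dpt, Irf7 and Tcf21 in 9, 10 and 11 (adjusted p up to 0.254, 0.176 and 0.427), among them a missing SoftY or StiffY library and, for Dpt and Tcf21, the block by replicate number (0.0845 and 0.104). With the block by library number both kept their calls (0.0126 and 0.00170), as they did with the block in all 23 cultured libraries (0.00342 and 0.000316).

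For the other genes the effects on both matrices ran the same way. All 16 genes higher on StiffA were also positive on young matrix, 8 of them called, and of the 11 lower genes 10 fell on young matrix too, Tcf21 being the exception. Of all genes, 2.12% were called higher and 2.45% lower on young matrix. The difference between matrices was called higher in 0.498% of all genes and lower in 0.117%. The interferon list had a median of 0.30 on young matrix with 4 of 36 higher, and 1 of its genes, Irf7, differed between matrices. The resident fibroblast list had 11 of 27 lower on young matrix and a median of -0.61, and the difference was called in 5 genes higher and 1 lower. Mitosis genes rose on young matrix, 14 of 32 with a median of 0.59, beside 0 of 32 and 0.10 on aged matrix, but the difference was called in 1 gene. Of the YAP and TAZ targets 7 rose on young matrix with a median of 0.35, and the difference was called in Ankrd1 alone (-0.74 ± 0.16, adjusted p = 0.0263). Ankrd1 measured 830.0 ± 94.8 CPM on SoftY and 1534 ± 29.04 on StiffY, against 1318 ± 244 on SoftA and 1461 ± 183 on StiffA. This call was lost in 11 of 21 alternatives (adjusted p up to 0.337), among them the block by replicate number (0.0785), though not by library number (0.00145) or in all 23 cultured libraries (0.000326), and omission of SoftY replicate 1, any StiffY library, SoftA replicate 1 or 3, or StiffA replicate 1 or 2.

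**Figure D4:**
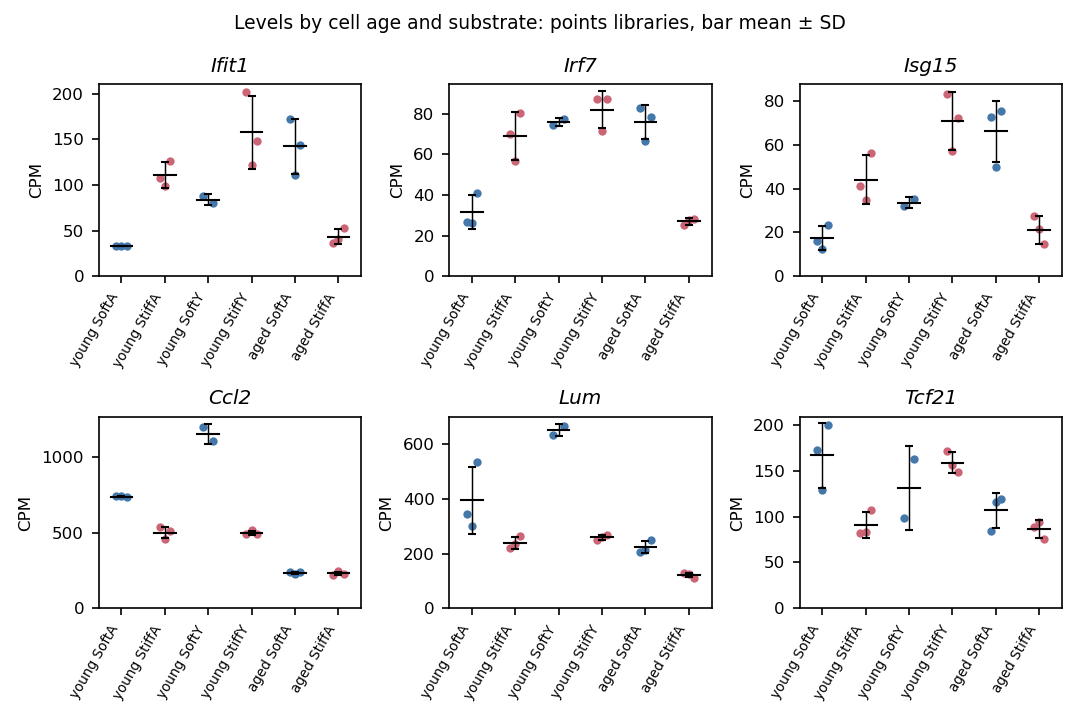
CPM (y axis) of 6 called genes in the 6 groups compared (x axis), with points for libraries, blue on soft and red on stiff gels, and bars for mean ± SD. Ifit1, Irf7 and Isg15 are low in young cells on SoftA and in aged cells on StiffA, Ccl2 and Lum are highest in young cells on SoftY, and Tcf21 is lowest on StiffA among young cells.

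Aged cells on the same 2 aged-matrix substrates gave the opposite result for interferon genes. In aged cells, StiffA over SoftA called 47 genes (0.366%), 2 higher (0.0156%) and 45 lower (0.35%). The test of the difference between cell ages called 44 genes (0.343%), 43 of them higher in young than in aged cells (0.335%) and 1 lower (0.00779%), and with the replicate block within the 12 libraries 46 and 0. Ifit1 measured 142 ± 30.2 CPM on SoftA and 43.3 ± 8.43 on StiffA in aged cells, against 33.01 ± 0.360 and 111 ± 14.4 in young cells (SD, n = 3 each). The high and the low substrate were therefore swapped between cell ages, and the effects of 1.75 and -1.71 ± 0.20 differed by 3.46 ± 0.30 (adjusted p = 2.19e-07). Irf7 measured 76.0 ± 8.47 and 27.0 ± 1.81 CPM in aged cells, against 31.5 ± 8.36 and 69.0 ± 11.9 in young cells, a difference of 2.65 ± 0.24 (adjusted p = 3.90e-07). Isg15 measured 66.1 ± 13.9 and 21.2 ± 6.45 CPM in aged cells, against 17.3 ± 5.45 and 44.1 ± 11.2 in young cells, a difference of 3.02 ± 0.36 (adjusted p = 1.91e-05).

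All 11 interferon genes called in young cells fell in aged cells, and all 11 differences between cell ages were called and held in each of 21 alternatives. In the interferon list the difference was called in 25 of 36 genes, all higher, beside 0.335% of all genes. 16 of 36 fell in aged cells, beside 0.35% of all genes, with a median of -0.82. All 36 values were negative there, while 33 of 36 were positive in young cells. Irf9, short of the threshold in young cells alone, differed between cell ages by 1.16 ± 0.23 (adjusted p = 0.0132). The 5 other genes that rose in young cells had positive values in aged cells and no called difference.

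The genes that fell in young cells pointed the same way in aged cells. All 11 were negative in aged cells and 4 of them called (Ptn, Gucy1a1, Lum and Dpt). Lum measured 224 ± 23.3 CPM on SoftA and 122 ± 8.86 on StiffA in aged cells (-0.88 ± 0.15), against 395 ± 123 and 239.97 ± 22.4 in young cells, and the difference of 0.17 ± 0.20 did not pass (adjusted p = 0.9995). Ccl2 was the exception. Its level in aged cells was 234 ± 7.51 on SoftA and 232 ± 11.6 on StiffA (-0.01 ± 0.08, adjusted p = 0.980). The effects differed by -0.55 ± 0.11 (adjusted p = 0.0166). This call was lost in 9 of 21 alternatives (adjusted p up to 0.144), among them the replicate block within the 12 libraries (0.0791), though not the block in all 23 (0.0135), and omission of young SoftA replicate 1 or 2, young StiffA replicate 2, or replicate 2 of either aged group.

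**Figure D5:**
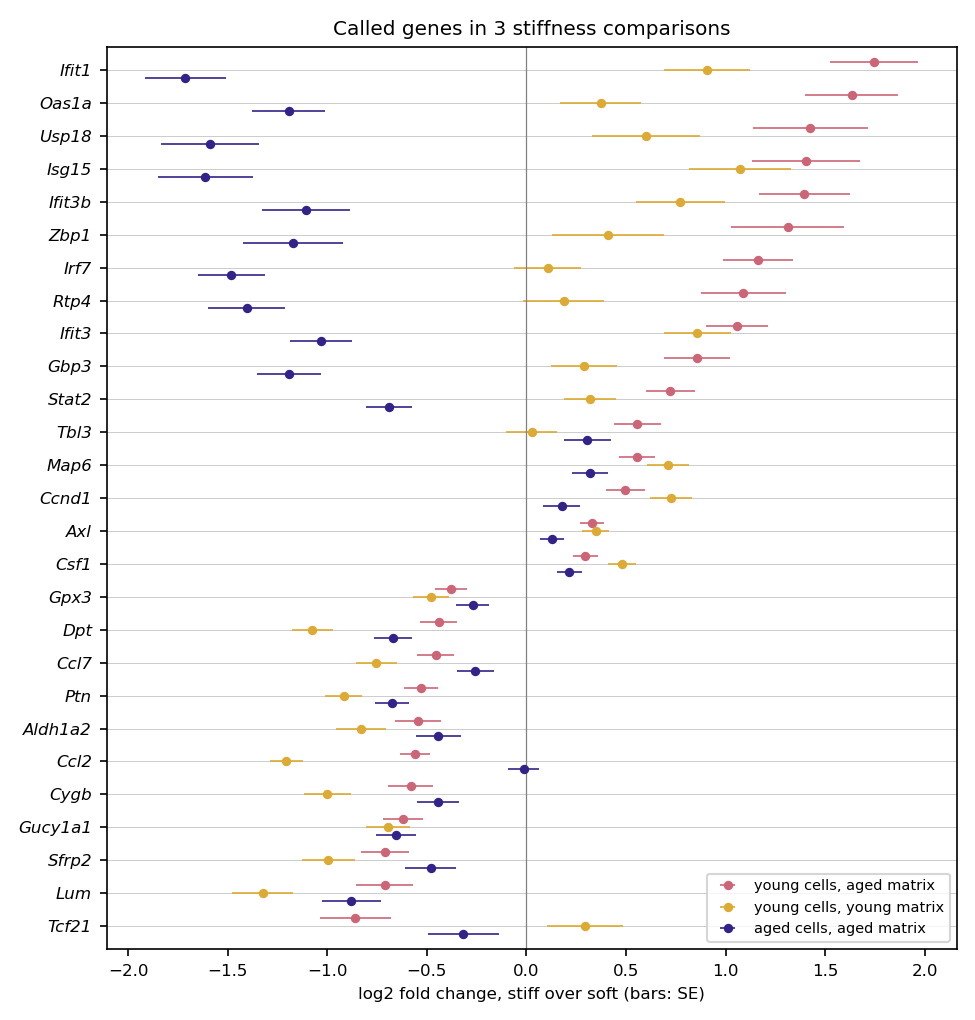
Log2 fold change, stiff over soft, with SE bars (x axis) for the 27 called genes (y axis) in young cells on aged matrix (red), young cells on young matrix (yellow) and aged cells on aged matrix (dark blue). The 11 interferon genes lie right of 0 in red and yellow and left of 0 in dark blue, while the lower genes lie left of 0 in all 3 except Tcf21 in yellow and Ccl2 near 0 in dark blue.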

How the data were processed

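Per the submitters' processing notes, reads of the 29 libraries were aligned with STAR 2.7.8a to mm39. The deposited values are raw HTSeq counts per gene, which the authors did not normalize. No source used here gives the strand setting, annotation release or HTSeq version, so overlapping genes and near-identical copies (Ifit3 and Ifit3b, Gbp3, Oas1a) are uncertain. Members, gene lists and comparisons were chosen with earlier results of these data known. Counts were fitted with edgeR 4.0.16 (R 4.3.3; TMM scaling, filterByExpr by group, quasi-likelihood F test, Benjamini-Hochberg over 12841 of 55357 genes) in all 23 cultured libraries as 8 groups, which share 1 estimate of the spread. A call is an adjusted p under 0.05 with no fold threshold. Each SE was computed as the size of the log2 fold change divided by the root of the F statistic, and CPM uses TMM-scaled totals, except marker sums, which use raw totals. Both interactions are contrasts of the same fit, and the groups they set against each other share no library. The scripts' tests were tested on simulated data. DESeq2 1.42.0 was an alternative.

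Genes named are the called genes of at least 10 CPM without overlap (the 12 largest changes in each direction), up to 4 called members of each list or 2 abundant members of a list with none, a set of fibroblast and mechanical genes in every case, and the 8 smallest p-values of each interaction. Map6, the interferon pathway by role, list members that missed the threshold or passed only with the block, and the further interaction genes were named after values were seen. Deviations of same-numbered libraries from their group means correlated at 0.22, 0.30 and 0.58 over 9280 genes, and the label numbers were taken to pair the samples. SoftA replicate 2 with StiffA replicate 1 correlated at 0.36, and SoftA replicate 1 with StiffA replicate 2 at 0.16. Pairs of a replicate 3 with another number ran from -0.29 to -0.51. The correlations thus set replicate 3 apart but do not show which of replicates 1 and 2 belong together. Replicates of a group differed by more than counting noise (chi-square per degree of freedom 2.01 to 12.2). Promoter letters come from RefSeq (GRCm38.p6). The response element was the only motif searched, because in no other list did many members pass. Counts limit precision: the depth of each library is given above, and PCR copies were not marked. Fresh cells were not used, and results of some single genes are not reported here.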

Additional observations from a re-analysis of the deposited data

Results flagged for a closer look

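The stiffness effect of young cells differed between aged and young matrix, by the test of the difference itself, in 19 named genes. All values are log2 differences, aged minus young matrix, from edgeR's quasi-likelihood test. They were 4.96 for Enpp2, 3.76 for Col15a1, 2.33 for Steap4, 2.02 for Sparcl1, 1.62 for Cpxm1, 1.36 for Apoe, 1.30 for Gsn and 1.28 for Fbln1. Genes with smaller values were Irf7 (1.06), Pdgfra (0.98), Lpl (0.92), Col6a1 (0.71), Ccl2 (0.65), Dpt (0.63), Emilin1 (0.47) and Serping1 (0.45). The difference was negative for Tcf21 (-1.15), Ankrd1 (-0.74) and Timp3 (-0.72).

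The effect on aged matrix differed between young and aged cells in 13 named genes. The log2 differences, young minus aged, were 3.46 for Ifit1, 3.02 for Isg15, 3.02 for Usp18, 2.83 for Oas1a, 2.65 for Irf7, 2.50 for Ifit3b, 2.50 for Rtp4, 2.49 for Zbp1, 2.09 for Ifit3, 2.05 for Gbp3 and 1.41 for Stat2. Outside the interferon genes they were 1.52 for Enpp2 and -0.55 for Ccl2. Enpp2 lost this call in 3 of 21 alternatives.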

How the results depend on the processing

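Depth limits the main comparison, since 2 of 3 SoftA libraries hold 1329591 and 1304731 counts, and genes under 10 CPM rest on few counts. The 16 genes higher and 11 lower became 42 and 36 with no filter on low counts, 26 and 18 with DESeq2, 1 and 0 in the 6 libraries alone, and 6 and 2 in the 11 cultured libraries of young cells. They became 44 and 38 with the replicate block within the 6 libraries, 4 and 1 without both shallow SoftA libraries, 9 and 6 without both libraries numbered 3, and 32 and 20 with a replicate block in all 23 libraries. The last 3 alternatives were chosen after seeing the data. Leaving out 1 library gave 7 to 13 higher and 2 to 15 lower. The block kept 26 of the 27 calls.

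The difference between matrices, 64 higher and 15 lower, became 127 and 59 with no filter, 32 and 1 in the young cells alone, 40 and 2 with the replicate block by replicate number, 98 and 64 by library number, 40 and 1 without both shallow libraries, and 140 and 127 with the replicate block in all 23. The lower count was 50 with robust fitting, 64 with DESeq2 and 24 without both libraries numbered 3. Leaving out 1 library gave 41 to 112 higher and 6 to 99 lower.

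The difference between cell ages, 43 higher and 1 lower, became 27 and 0 in the 12 libraries alone, and the lower count was 0 with no filter, with the replicate block within the 12 libraries and without both shallow libraries, and 1 with the replicate block in all 23. Leaving out 1 library gave 27 to 45 and 0 to 2. Apart from counts of genes, 2635 values for single genes kept their side of the threshold, 259 lost a call and 23 gained one. Of the values called in either fit, 0 reversed direction. Values called in neither fit are among the 2635 whatever their sign, so changes of sign there were not counted. Lists were not scored in this way. The cause of these changes was not tested.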

Other observations

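Lists outside the comparisons above leaned in 1 direction with few or no calls. Over all genes, 49.5% were positive and 4.18% were lower at an unadjusted p under 0.05. On young matrix 2.45% of all genes were called lower, and the difference between matrices was called in 0.615%. Of the 11 tested respiratory genes of the mitochondrial genome, edgeR called 0 and 0 were positive. Their median log2 fold change was -0.41, with 4 lower at an unadjusted p under 0.05. DESeq2 also called 0, among the 8 to which it gave an adjusted p. With the replicate block 1 gene of this list, mt-Co1, fell (-0.49 ± 0.10, adjusted p = 0.00867). Of 71 ribosomal protein genes edgeR called 0 and 13 were positive, with a median of -0.18 and 10 lower at an unadjusted p under 0.05. On young matrix the medians of these lists were 0.15 and 0.27. Complement genes had a median of -0.24, with 0 of 12 called and 4 lower at an unadjusted p under 0.05, against 7 of 12 lower and a median of -0.91 on young matrix, and the difference between matrices was called in 4. Growth factor genes had a median of -0.16, with 0 of 31 called and 7 lower at an unadjusted p under 0.05.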
